A study of Mus musculus with 10 samples.

Results

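The neurotrophin genes Bdnf and Ntf3 and the receptor genes Ntrk2, Ntrk3 and Ngfr were followed in 10 brain libraries from mice whose mothers had eaten a low-protein or a normal-protein diet. The 5 genes were chosen by name and matched by Ensembl ID (GENCODE M21, GRCm38) among 47729 genes in the count table, and all 5 were found. The mice were CF1 animals of postnatal day 56. In the LP groups the parents ate a low-protein diet from mating, and the dams stayed on it through pregnancy and lactation. In the NP groups the diet over the same period held normal protein. The pups of both groups were weaned on day 21 and then ate the NP diet for 5 weeks, so no animal was on low protein at sampling. Both sexes were sampled for prefrontal cortex and hippocampus, and only males for hypothalamus. Every combination of region, sex and diet has 1 library, which gives 5 LP and NP pairs. Whether a library came from 1 animal or a pool, and whether regions shared animals, is not stated. The p-values therefore measure the spread between these libraries. If regions shared animals, the pairs would not be independent, and p-values for diet or sex over several regions would be too small. Those between regions would then ignore the pairing.

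Neurotrophins are secreted growth factors that bind 2 kinds of receptor. The Trk receptors are tyrosine kinases that signal through Ras and MAP kinases, PI3 kinase and phospholipase C, and p75, the product of Ngfr, is a death-domain receptor that binds all neurotrophins and their uncleaved precursors. BDNF acts mainly through TrkB (Ntrk2) and neurotrophin 3 mainly through TrkC (Ntrk3). In the forebrain, BDNF is made mostly by excitatory neurons and its transcription rises with synaptic activity. TrkB is made by neurons and, in a form without the kinase, by astrocytes. In the adult, p75 is best known from the cholinergic neurons of the basal forebrain.

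Bdnf lies on chromosome 2 (chr2:109674700-109727007, plus strand) and has 11 annotated transcripts, which start from several promoters and carry the same coding exon. A count per gene sums them all and does not show which promoter was used. RefSeq gave 7 promoter windows for Bdnf on GRCm38.p6, 2 for Ntf3, and 1 each for Ntrk2 and Ngfr, and Ntrk3 had none. Each window, from 250 bases before to 50 bases after a start site, was searched on both strands for the CRE (TGACGTCA), an AP-1 site (TGANTCA), an E-box (CACGTG) and an EGR site (GCGGGGGCG), and, added after the values were known, for the CRE core (CGTCA). No 2 of these patterns matched the same bases. The 250 bases before the start are shown for the Bdnf windows with a match, since Bdnf was the member that rose after low protein, with the matching letters in capitals. Both run 5′ to 3′ on the plus strand, the first at chr2:109676782-109677031 and the second at chr2:109692186-109692435.
Bdnf-206: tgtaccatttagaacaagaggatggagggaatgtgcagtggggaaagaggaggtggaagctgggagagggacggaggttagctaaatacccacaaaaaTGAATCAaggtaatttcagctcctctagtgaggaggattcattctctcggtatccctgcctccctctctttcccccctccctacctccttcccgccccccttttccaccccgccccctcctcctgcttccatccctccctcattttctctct
Bdnf-209: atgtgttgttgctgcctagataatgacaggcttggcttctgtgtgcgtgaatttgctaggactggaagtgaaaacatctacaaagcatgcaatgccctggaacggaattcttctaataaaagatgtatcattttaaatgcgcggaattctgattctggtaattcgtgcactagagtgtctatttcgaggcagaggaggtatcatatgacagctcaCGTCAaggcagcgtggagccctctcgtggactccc
The first holds an AP-1 match, TGAATCA, that begins 152 bases before the start, and an AP-1 match was present in 7.81% of all 32851 promoter windows. The second holds the CRE core, CGTCA, beginning 35 bases before the start, and 20.8% of all windows held it. The other 5 Bdnf windows held no match, nor did those of Ntrk2 and Ngfr, and an Ntf3 window held an E-box 231 bases before its start, as did 7.15% of all windows. The full CRE (1.79% of windows) and the EGR site (2.91%) were in no window of the members. These matches describe letters in the sequence and are not evidence of binding.

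Total counts ranged from 7871010 to 16265481 per library. In the hippocampus library of NP females, counting stopped at a point on chromosome 4 and chromosomes 5 to 9, X, Y and M were empty. All 4480 well-counted genes of that stretch (mean of 50 or more in the complete libraries) were at 0, against 4 of 8581 in the rest of the genome. Genes in that stretch were treated as not measured in this library, which leaves Ntf3 (chromosome 6) and Ntrk3 (chromosome 7) with 9 libraries and no female hippocampal pair. Bdnf, Ntrk2 and Ngfr were measured in all 10. Marker genes of the labelled tissue were checked. The hypothalamus list (Hcrt, Pmch, Oxt, Avp, Agrp and Sim1) summed to 361.6 and 723.9 CPM (counts scaled to a common library size) in hypothalamus and to at most 2.20 CPM in the other libraries. The neocortical list was at 2405 to 2691 CPM in prefrontal cortex and, not far under it, at 2176 to 2254 CPM in the complete hippocampal libraries. Its 2 genes measured in all libraries were at 247.4 to 278.6 CPM in prefrontal cortex and 62.5 to 74.7 CPM in hippocampus. The dentate and CA list was at 668.2 to 719.7 CPM in the complete hippocampal libraries, above 196.3 to 248.2 CPM in prefrontal cortex. Its 4 genes measured in all libraries were at 382.1 to 409.7 CPM in hippocampus and 23.0 to 26.6 CPM in prefrontal cortex. The male NP hippocampus library stood apart by its pituitary markers (Gh, Prl and Cga), which summed to 542.3 CPM against 0.259 to 9.31 CPM in the other hippocampal libraries. The female NP hippocampus library had thalamus markers at 159.1 CPM, against 77.6 to 102.1 CPM in the others from hippocampus. Its 3 choroid plexus markers measured in all libraries were at 44.5 CPM, against 108.8 to 213.6 CPM in those. The part of these differences in the hippocampal Bdnf ratios was not tested. In bulk tissue, fewer cells of a type and less RNA per cell cannot be told apart.

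Levels are given as normalised CPM, in which library size includes the TMM factor. Bdnf, whose product supports synapse growth and plasticity, was higher in LP than in NP in all 5 pairs. In male prefrontal cortex it stood at 30.2 CPM (367 counts) in NP and 45.5 CPM (600 counts) in LP. In female prefrontal cortex it stood at 37.6 CPM (393 counts) in NP and 67.3 CPM (651 counts) in LP. Both LP libraries of this region lay above both NP libraries, and the female LP library had the highest level of the series. In hippocampus the values were 47.7 CPM in NP and 50.8 CPM in LP for males, and 46.5 CPM in NP and 55.2 CPM in LP for females. The LP libraries again lay above the NP libraries, by less. In male hypothalamus Bdnf was at 18.6 CPM in NP and 26.4 CPM in LP, the lowest levels of the series. The NP and LP hypothalamus libraries also differed in markers. The hypothalamus list was at 723.9 CPM in NP and 361.6 CPM in LP, and smooth muscle and meninges at 221.3 and 503.7 CPM. The part of these differences in the hypothalamic Bdnf ratio was not tested.

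**Figure D1:**
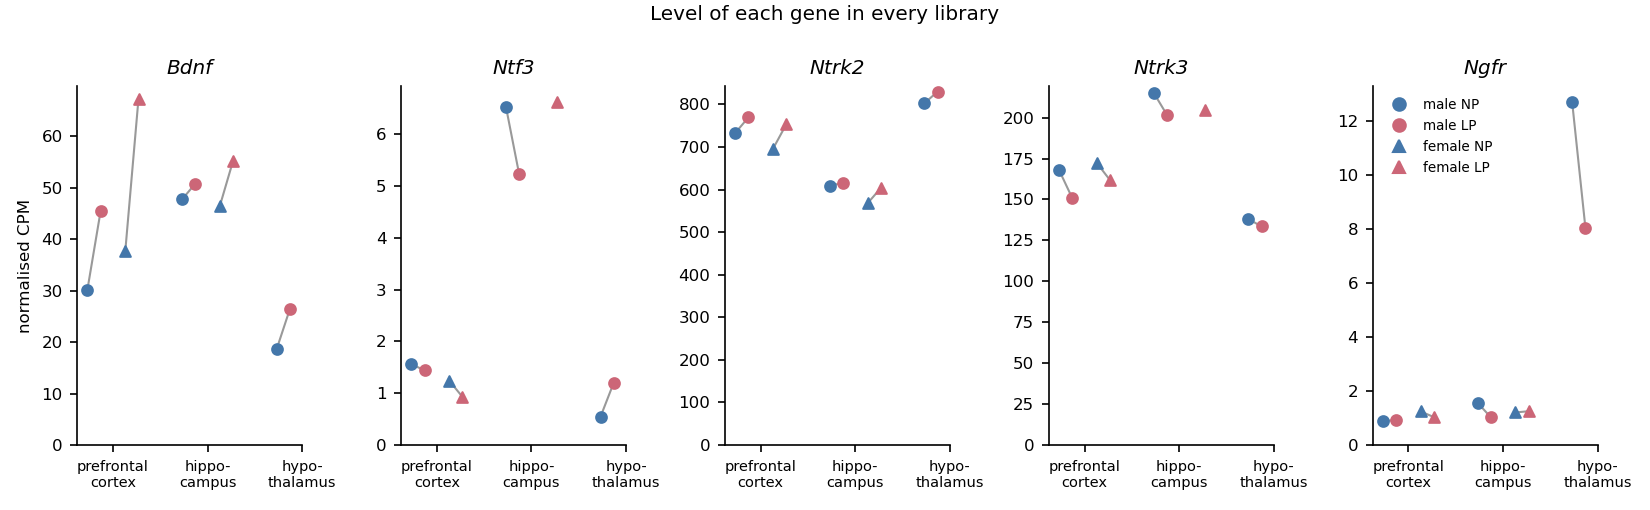
Normalised CPM (y axis, from 0) of each gene by region (x axis), 1 point per library, with blue for NP, red for LP, circles for males and triangles for females; grey lines join the LP and NP library of a pair. Bdnf was higher in LP in all 5 pairs, Ntf3 was highest in hippocampus, and Ngfr was highest in hypothalamus.

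Over the 5 pairs Bdnf rose by 0.44 ± 0.09 on the log2 scale (SE, 1.36-fold, adjusted p = 0.0308, edgeR's quasi-likelihood test with Benjamini-Hochberg adjustment). It was the only one of the 5 members to pass in this comparison, in which 1.41% of 17685 genes passed and 0.956% passed as higher. The call was lost without the male prefrontal pair (log2 0.41, adjusted p = 0.0622) and without the female prefrontal pair (log2 0.35, adjusted p = 0.137). Within prefrontal cortex Bdnf rose by 0.72 ± 0.09 (1.65-fold, adjusted p = 0.000811, edgeR), where 1.5% of 11772 genes passed and 0.841% passed as higher; with DESeq2 the fold was the same in direction and size (log2 0.72) and the adjusted p was 0.0875. Other cells' markers also differed by diet in this region: the blood list was at 1280 CPM in NP and 756.8 CPM in LP for males and 1112 and 667.3 CPM for females. The oligodendrocyte list was at 2576 and 1665 CPM for males and 1823 and 1547 CPM for females, in the same order. The neocortical neuron list was at 2405 and 2601 CPM for males and 2643 and 2691 CPM for females. The part of these in the Bdnf values was not tested. Within hippocampus the difference was 0.17 ± 0.09 (adjusted p = 0.902, edgeR) and did not pass, in a region where 0.306% of genes passed and 0.212% passed as higher. The diet effect in hippocampus minus that in prefrontal cortex was -0.55 ± 0.13 on the log2 scale, with an unadjusted p of 0.000518 and an adjusted p of 0.46 (edgeR), so it did not pass. No gene passed for this difference between regions (0% of 11772 genes). Of these genes 631 had an unadjusted p under 0.05 (edgeR), near the share of 0.05 that is reached with no difference in any gene. DESeq2 called 0 genes and the earlier edgeR method called 1.

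Each pair can also be set against its own counting error, an exact 95% interval for the ratio of 2 counts that covers no variation between animals. For Bdnf the log2 ratio of LP to NP was 0.59 (0.40 to 0.78) in male prefrontal cortex and 0.84 (0.66 to 1.02) in female prefrontal cortex. It was 0.09 (-0.07 to 0.25) in male hippocampus, 0.25 (0.08 to 0.42) in female hippocampus and 0.50 (0.30 to 0.71) in hypothalamus. The interval thus excluded 0 in 4 of 5 pairs, the exception being male hippocampus, where 16.1% of genes had such an interval. The share of genes whose interval excluded 0 was 25.2% in male prefrontal cortex, 15.4% in female prefrontal cortex, 12.5% in female hippocampus and 30.7% in hypothalamus. The difference of the diet effect between females and males was 0.21 ± 0.19 for Bdnf (adjusted p = 0.859, edgeR) and did not pass, in a comparison that called 0.137% of 10973 genes.

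**Figure D2:**
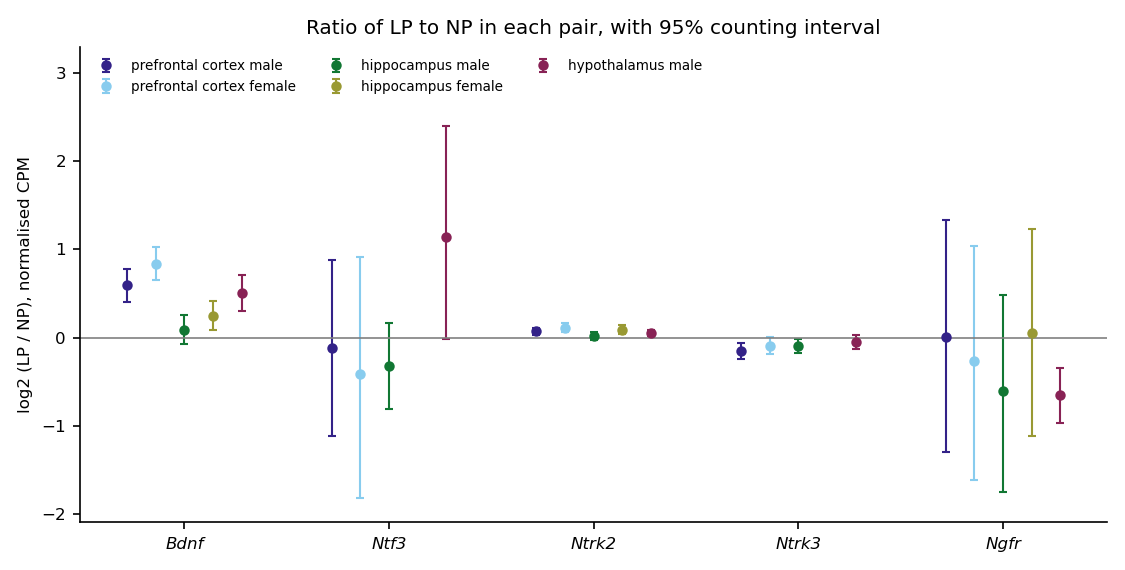
Log2 ratio of LP to NP (y axis) for each gene (x axis), 1 point per pair of libraries, with bars for the exact 95% interval of counting error; Ntf3 and Ntrk3 have no female hippocampal pair. The Bdnf intervals lie above 0 in 4 of 5 pairs, the Ntrk2 and Ntrk3 ratios are small with narrow intervals, and the Ntf3 and Ngfr intervals are wide outside hippocampus and hypothalamus respectively.

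Bdnf is itself an activity-induced gene, so 16 other genes induced by neuronal activity were read beside it. After low protein 11 of the 16 rose over the pairs and none fell (0.956% of all genes tested rose). The median was 0.61 on the log2 scale against -0.001 over all genes tested. Some of the 16 were not measured in the female NP hippocampus library, were fitted without it and had no female hippocampal pair. Fos, a subunit of AP-1, rose by 0.69 ± 0.11 (adjusted p = 0.00801, edgeR). Npas4, a transcription factor that binds Bdnf promoters, differed by 0.60 ± 0.17 and did not pass (adjusted p = 0.117, edgeR). The count was 7 of 16 with DESeq2, 5 without the female prefrontal pair and 7 without the male hippocampal pair. In prefrontal cortex 8 of 11 tested rose, with a median of 0.63 (0.841% of all genes rose), and in hippocampus 8 of 11 rose, with a median of 0.69 (0.212% of all genes). With DESeq2 these counts were 4 and 4, and without the filter on low counts 3 and 1.

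The place of the Bdnf ratio within the list differed from pair to pair. In male hippocampus all 16 genes had higher levels in LP, with a median log2 ratio of 0.66, and 15 of the 16 lay above Bdnf. This pair includes the NP library with high pituitary markers; without the pair, the Bdnf difference over the other 4 pairs was 0.54 ± 0.09 (adjusted p = 0.0278, edgeR). In female hippocampus all 11 measured genes were higher in LP (median 0.66) and all lay above Bdnf. In male prefrontal cortex the median was 0.34 and 3 of 16 genes lay above Bdnf. In hypothalamus the median was 0.19 and again 3 of 16 lay above Bdnf. In female prefrontal cortex the median was 0.94, with 11 of 16 above Bdnf. Npas4 was at 171.0 CPM in NP and 175.3 CPM in LP in male prefrontal cortex, where Bdnf was 1.51-fold higher in LP. In male hippocampus Npas4 stood at 30.4 CPM in NP and 49.6 CPM in LP, where Bdnf was 1.06-fold higher. In female prefrontal cortex both had their largest ratio, 2.58-fold for Npas4 and 1.79-fold for Bdnf. In female hippocampus Npas4 was 2.26-fold and Bdnf 1.19-fold higher, and in hypothalamus the ratios were 0.957 and 1.42. Whether activity at sampling had a part in the Bdnf values was not tested.

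**Figure D3:**
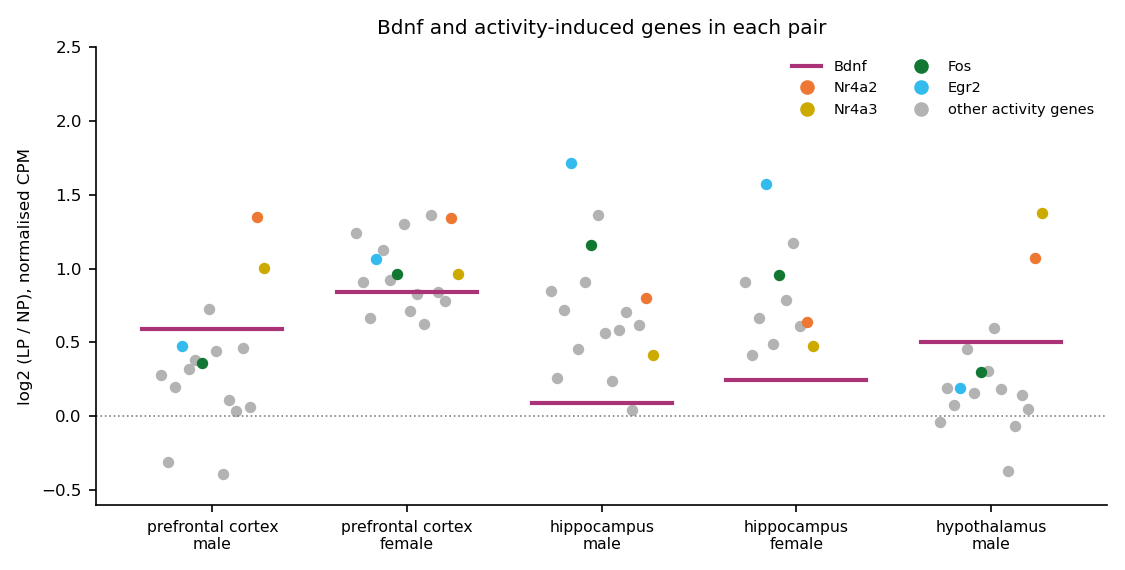
Log2 ratio of LP to NP (y axis) in each of the 5 pairs (x axis) for Bdnf (horizontal bar) and the activity-induced genes (points, 16 per pair and 11 in female hippocampus), with 4 of them coloured. Bdnf lies near the top of the points in male prefrontal cortex and hypothalamus and near or under their lower end in hippocampus.

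Ntf3, which encodes neurotrophin 3 (chr6:126101412-126166910, minus strand), was low and differed mainly by region. In hippocampus it was at 6.53 CPM in male NP, 5.23 CPM in male LP and 6.62 CPM in female LP. In prefrontal cortex it was at 1.56 CPM in male NP, 1.44 CPM in male LP, 1.24 CPM in female NP and 0.930 CPM in female LP. In hypothalamus it was at 0.546 CPM in NP and 1.20 CPM in LP. Every hippocampal library lay above every other library, while prefrontal cortex and hypothalamus overlapped. The hippocampal level exceeded the prefrontal one by 2.21 ± 0.24 on the log2 scale (4.63-fold, adjusted p = 7.02e-07, edgeR) and the log2 difference of hypothalamus from hippocampus was -2.81 ± 0.29 (7.02-fold lower, adjusted p = 3.53e-07, edgeR). Diet gave -0.10 ± 0.23 (adjusted p = 0.895, edgeR). The pairs held 9 to 79 counts per library, the 4 pair intervals all included 0, and the hypothalamic pair (10 and 20 counts) went the other way from the other 3.

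Ntrk2, the gene of TrkB (chr13:58806569-59133970, plus strand), was the most abundant member in CPM and per length. Its count sums 10 annotated transcripts, so forms with and without the kinase cannot be told apart. Prefrontal cortex had 732.8 CPM in male NP, 769.7 CPM in male LP, 696.0 CPM in female NP and 753.2 CPM in female LP. Hippocampus had 609.6 CPM in male NP, 615.5 CPM in male LP, 568.0 CPM in female NP and 603.9 CPM in female LP. Hypothalamus had 802.9 CPM in NP and 830.3 CPM in LP. The 3 regions did not overlap, with hypothalamus highest and hippocampus lowest. The log2 difference of hippocampus from prefrontal cortex was -0.30 ± 0.03 (adjusted p = 4.56e-06, edgeR) and that of hypothalamus from hippocampus 0.42 ± 0.04 (adjusted p = 1.63e-06, edgeR). Hypothalamus also exceeded prefrontal cortex by 0.12 ± 0.04 (adjusted p = 0.0335, edgeR), a call lost with DESeq2 or RLE factors (log2 0.08 in each) and without any one of 7 libraries. The 7 astrocyte markers summed to 3494 and 3506 CPM in hypothalamus, 4238 to 5177 CPM in prefrontal cortex and 4831 to 5125 CPM in the complete hippocampal libraries, lowest where Ntrk2 was highest and overlapping between the other regions. The part of astrocytes in the Ntrk2 level was not tested.

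Ntrk2 was higher in LP in all 5 pairs, by 0.01 to 0.11 on the log2 scale. The difference over pairs was 0.07 ± 0.03 and did not pass (adjusted p = 0.359, edgeR). With 6590 to 14707 counts per library, counting error is small here, and 4 of 5 pair intervals excluded 0. In prefrontal cortex the difference was 0.09 ± 0.05 (adjusted p = 0.414, edgeR) and in hippocampus 0.05 ± 0.05 (adjusted p = 0.954, edgeR).

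Ntrk3, the gene of TrkC (chr7:78175959-78738012, minus strand), had the reverse order of regions to Ntrk2. Its count sums 20 annotated transcripts, which cannot be told apart here. Hippocampus had 215.2 CPM in male NP, 201.7 CPM in male LP and 204.6 CPM in female LP. Prefrontal cortex had 168.0 CPM in male NP, 150.8 CPM in male LP, 172.2 CPM in female NP and 161.7 CPM in female LP, and hypothalamus had 138.1 CPM in NP and 133.5 CPM in LP. No regions overlapped. The log2 difference of hippocampus from prefrontal cortex was 0.37 ± 0.05 (adjusted p = 6.23e-06, edgeR). That of hypothalamus was -0.24 ± 0.06 from prefrontal cortex (adjusted p = 0.00197) and -0.61 ± 0.06 from hippocampus (adjusted p = 1.17e-07). All 4 measured pairs were lower in LP, with log2 ratios from -0.16 to -0.05, and 2 of the 4 intervals excluded 0, those of the male prefrontal and male hippocampal pairs. The difference over pairs, -0.10 ± 0.05, did not pass (adjusted p = 0.36, edgeR).

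Ngfr, the gene of p75 (chr11:95568818-95587735, minus strand), was low outside hypothalamus. Prefrontal cortex had 0.904 CPM in male NP, 0.910 CPM in male LP, 1.24 CPM in female NP and 1.03 CPM in female LP, from 10 to 13 counts. Hippocampus had 1.57 CPM in male NP, 1.03 CPM in male LP, 1.21 CPM in female NP and 1.25 CPM in female LP, from 13 to 19 counts. Hypothalamus had 12.7 CPM (233 counts) in NP and 8.06 CPM (134 counts) in LP. Both hypothalamic libraries lay far above the other 8, which overlapped. Hypothalamus exceeded prefrontal cortex by 3.39 ± 0.22 on the log2 scale (10.4-fold, adjusted p = 5.59e-09, edgeR) and hippocampus by 3.07 ± 0.21 (8.41-fold, adjusted p = 1.17e-08, edgeR).

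Ngfr was the member with the largest drop in hypothalamus after low protein, with a log2 ratio of -0.66 (-0.98 to -0.35). This rests on 1 pair and has no replicate. Over the 5 pairs the difference was -0.53 ± 0.16 (adjusted p = 0.135, edgeR), and -0.22 ± 0.26 (adjusted p = 0.759) without the hypothalamic pair. The 3 cholinergic markers, Chat, Slc5a7 and Slc18a3, summed to 13.7 CPM in the NP and 5.72 CPM in the LP hypothalamus, and to 1.16 to 2.88 CPM elsewhere. Slc5a7, the choline transporter, went from 133 to 33 counts, with a log2 ratio of -1.87 (-2.47 to -1.31). Chat, which makes acetylcholine, went from 48 to 17 counts, at -1.36 (-2.25 to -0.53). Slc18a3, the vesicular transporter, went from 70 to 45 counts, at -0.50 (-1.07 to 0.06), an interval that included 0. Other lists also differed between these 2 libraries, among them smooth muscle and meninges (221.3 CPM in NP, 503.7 CPM in LP), oligodendrocyte (5084 CPM in NP, 3664 CPM in LP), pituitary (102.3 CPM in NP, 20.4 CPM in LP) and the hypothalamus list itself (723.9 CPM in NP, 361.6 CPM in LP). The part of these differences in the Ngfr value was not tested. The label of the LP hypothalamus library also carries a code of another form than the other 9 libraries, and what the code stands for is not given.

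**Figure D4:**
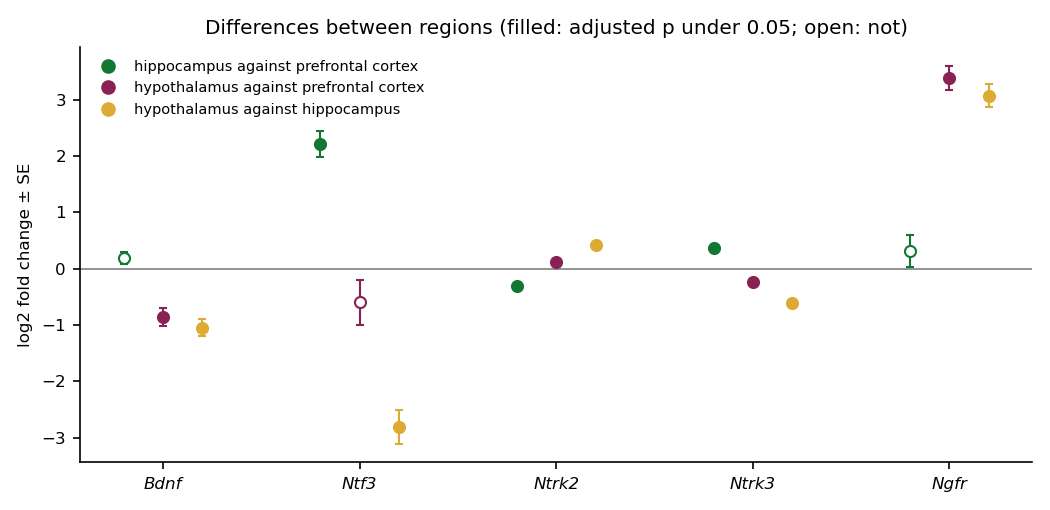
Log2 fold change with its SE (y axis) between regions for each gene (x axis), from edgeR fits with sex and diet as additive terms; filled points passed at an adjusted p under 0.05 and open points did not. Ntf3 differs most between hippocampus and the other regions and Ngfr between hypothalamus and the other regions, while Ntrk2 and Ntrk3 differ by under 1 log2 unit in opposite order.

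Between regions, most members passed, as did most genes. From hippocampus to prefrontal cortex 3 of 5 members differed, where 53.8% of 17447 genes passed. Hypothalamus differed from prefrontal cortex in 4 of 5 members (63.9% of genes) and from hippocampus in 5 of 5 (60.5% of genes). For Bdnf the log2 difference of hypothalamus was -0.86 ± 0.15 from prefrontal cortex (adjusted p = 0.000214, edgeR) and -1.05 ± 0.15 from hippocampus (adjusted p = 3.25e-05, edgeR). For Bdnf in hippocampus and prefrontal cortex, the NP libraries were at 47.7 and 46.5 CPM in hippocampus against 30.2 and 37.6 CPM in prefrontal cortex, while the LP libraries of the 2 regions overlapped; as given above, the diet effect was not shown to differ between them. The overall difference of 0.19 ± 0.11 did not pass (adjusted p = 0.163, edgeR) and passed at 0.34 without the female LP prefrontal library (adjusted p = 0.00725).

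Levels of different genes can be set side by side only per length, here as normalised CPM per kb of merged exon. Over all measured libraries the mean was 36.2 ± 4.84 for Ntrk2 (SD, n = 10), 6.85 ± 2.34 for Bdnf (n = 10), 5.69 ± 0.981 for Ntrk3 (n = 9), 1.64 ± 1.48 for Ntf3 (n = 9) and 0.869 ± 1.18 for Ngfr (n = 10). The Ntrk2 libraries lay above those of all other members. Bdnf and Ntrk3 overlapped in prefrontal cortex, at 4.85 to 10.8 and 5.00 to 5.71 CPM per kb. In hippocampus Bdnf was the higher one, at 7.47 to 8.88 against 6.68 to 7.13 CPM per kb, but with the length of the longest transcript the ranges overlapped (10.9 to 12.9 and 10.2 to 10.9). In hypothalamus it was the lower one, at 3.00 to 4.25 against 4.43 to 4.58 CPM per kb. Ntf3 and Ngfr changed places between regions: the hippocampal means were 3.57 ± 0.456 for Ntf3 (SD, n = 3) and 0.367 ± 0.0654 for Ngfr (n = 4), and the hypothalamic means 0.510 ± 0.271 for Ntf3 and 3.02 ± 0.955 for Ngfr (n = 2 each). Lengths of the longest transcript gave higher values for the 4 genes with more than 1 transcript and the same order overall.

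**Figure D5:**
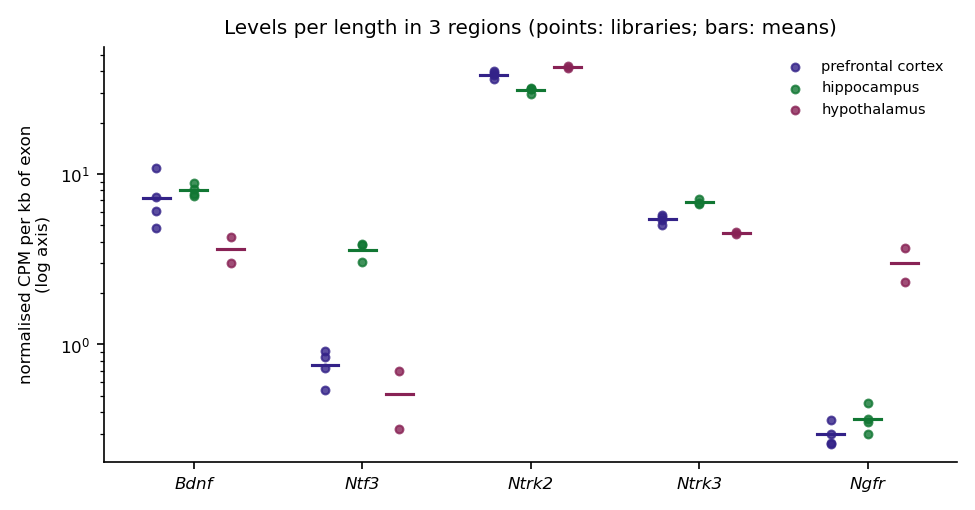
Normalised CPM per kb of merged exon (y axis, log scale) of each gene by region (colours), with 1 point per library and a bar at each mean. Ntrk2 stands above the others in every region, and Ntf3 and Ngfr exchange places between hippocampus and hypothalamus.

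Sex made no difference that passed for any of the 5 members, in a comparison that called 0.591% of 18090 genes. Bdnf was higher in females by 0.24 ± 0.08 (unadjusted p = 0.0123, adjusted p = 0.371, edgeR), and in 3 of the 4 matched comparisons, the exception being the NP hippocampus. The activity-induced genes went the other way, with 11 of 16 lower in females and 1, Nptx2, higher (0.276% of all genes were lower and 0.315% higher). Fos differed by -1.14 ± 0.08 on the log2 scale, female minus male (adjusted p = 5.59e-06, edgeR). The count of 12 was 4 with DESeq2 and 4 without the filter on low counts. It was 3 without either NP prefrontal library, 7 without either LP prefrontal library and 4 without either LP hippocampal library.

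The rest of the pathway was read from a list of 78 genes, of which 74 were tested for diet over the pairs. The list held ligands, receptors, ligand processing, Trk and p75 partners, kinases and regulators of Bdnf transcription. Those not measured in the female NP hippocampus library, Plat among them, were fitted without it and had no female hippocampal pair. After low protein 3 rose, 1 fell and 70 did not pass, so that 5.41% passed against 1.41% of all genes. The median was 0.02 on the log2 scale, against -0.001 over all genes. Plat, the tissue plasminogen activator that starts the cleavage of proBDNF through plasmin, rose by 0.39 ± 0.07 (adjusted p = 0.0143, edgeR). Rps6ka2, a kinase of the RSK family downstream of MAP kinase, rose by 0.21 ± 0.05 (adjusted p = 0.0401) and Srf, a transcription factor activated by MAP kinase signalling, by 0.22 ± 0.05 (adjusted p = 0.0406). The count of 4 became 1 with DESeq2, 2 without the filter on low counts, and 0 without the female prefrontal pair. In prefrontal cortex 1 of 44 tested genes passed, Mef2c, a neuronal transcription factor, which fell by 0.32 ± 0.06 (adjusted p = 0.0185, edgeR); it did not pass with DESeq2 or without the filter on low counts. In hippocampus 0 of 44 passed with edgeR.

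Ntf5, the gene of neurotrophin 4, had 3 to 9 counts per library. Between regions 58 of 74 pathway genes passed from hippocampus to prefrontal cortex (28 higher and 30 lower in hippocampus), which is 78.4% against 53.8% of all genes. From hypothalamus to prefrontal cortex 62 passed (23 higher and 39 lower in hypothalamus), or 83.8% against 63.9%. From hypothalamus to hippocampus 58 passed (19 higher and 39 lower), or 78.4% against 60.5%. Of all genes, 34.4% were higher and 29.5% lower in hypothalamus than in prefrontal cortex, and 32.3% higher and 28.2% lower than in hippocampus. Of the 10 p75 partners 6 were higher and 2 lower in hypothalamus than in prefrontal cortex, against 34.4% and 29.5% of all genes. The lower ones were Lingo1 (log2 -3.00 ± 0.08) and Rtn4r, the Nogo receptor (log2 -4.12 ± 0.11), coreceptors that form a complex with p75 on neurons. Sort1, the gene of sortilin, which binds proneurotrophins together with p75, differed by -1.97 ± 0.06 (adjusted p = 7.32e-13, edgeR). These 3 genes were lowest in the region where Ngfr was highest. They were named by their small p, and 6 of the 10 p75 partners were, like Ngfr, higher in hypothalamus than in prefrontal cortex. Of the PI3 kinase group 8 of 9 genes were lower in hypothalamus than in prefrontal cortex (29.5% of all genes were lower), among them Pik3r2 (log2 -1.60 ± 0.06). The log2 difference of hippocampus from prefrontal cortex was -2.14 ± 0.08 for Mef2c and -1.59 ± 0.07 for Sorcs1, a sortilin relative, and 1.16 ± 0.07 for Mef2a. The region comparisons share libraries, so their counts are not independent.

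The genes whose levels ran most like each member were found by Pearson's correlation of log2 CPM over the 9 complete libraries, among 12463 genes; the libraries share regions, which dominate these values. For Bdnf they were Rab3gap2 (r = 0.99), Zswim6 (0.98) and Arid5b (0.97). Ntf3 ran most like Strip2, Itga8 and Rab10 (0.98 to 0.99), and Ntrk2 most like Iqce, Prdx4 and Mboat7 (0.98 each). Ntrk3 ran most like Gpr22, Cadm2 and Megf9 (0.99 each), and Megf9 was also the gene least like Ntrk2 (r = -0.99). For Ngfr the most alike were Zfp521, Qpct and Pomgnt2 (0.99 each).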

How the data were processed

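The deposited table holds unnormalised read counts for each Ensembl gene in each library, as the authors made it. The submitters' processing notes name CASAVA, FastQC 0.10.1, STAR 2.5.0a and the build mm10. Per the labels' protocols, TruSeq libraries were made from 1 µg of total RNA. How reads were assigned to genes, with or without strand, is not stated, so reads of Bdnf and of the antisense gene Gm45346, whose exons overlap, cannot be told apart.

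Gene IDs were matched to GENCODE M21 (47310 of 47729). Normalised CPM is a count divided by the library's size, taken from the 28131 genes measured in all libraries and multiplied by the TMM factor. The 19598 other genes were treated as not measured in the female NP hippocampus library and fitted without it. edgeR 4.0.16 (filterByExpr with a minimum count of 10, glmQLFit, glmQLFTest; R 4.3.3) was run on all genes, with Benjamini-Hochberg adjustment over both gene sets and a threshold of 0.05. Diet was fitted over the 5 pairs, and within prefrontal cortex and hippocampus with a diet term for each region (leaving 2 residual degrees of freedom, for genes measured in all libraries). Regions were fitted with sex and diet, and sexes within each combination of region and diet. SEs are the log2 fold change divided by the square root of F. The fits for diet over the pairs, diet in prefrontal cortex and hypothalamus against prefrontal cortex were also run on simulated counts. These had changes of a fixed size in well-counted genes and the same dispersion for all genes. They do not check smaller differences, low counts or the spread of the real libraries. Alternatives were DESeq2 1.42.0, RLE factors, no filter, edgeR's earlier method, other terms, and leaving out each library or pair. A count of 0 allows up to 3 counts. Genes named were the members, up to 4 pathway genes per comparison with the smallest p, Fos and Npas4, and genes a result turned on. Ntf5, Nptx2, Nr4a2, Nr4a3 and Egr2 were named after their values were seen. Some genes of the pathway list are counted but not reported here by name. Members and lists were chosen with earlier results of these data known, so no list count is independent support.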

Additional observations from a re-analysis of the deposited data

How the results depend on the processing

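Each group of region, sex and diet has 1 library. Depth limits Ngfr outside hypothalamus and Ntf3 outside hippocampus, where they had 9 to 20 counts per library. No paired analysis by replicate number was possible because the labels give none; the blocks used were region and sex for diet, and region and diet for sex. The direction of the Bdnf rise over all pairs, in prefrontal cortex and in hippocampus was the same under all alternatives run. Calls between regions held under all 15 alternatives except those given for Ntrk2, for Bdnf between hippocampus and prefrontal cortex, and for Ntf3 between hypothalamus and prefrontal cortex, which passed without the hypothalamic LP library.

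Counts of genes past the threshold moved most. With DESeq2 they were 112 for diet over all pairs (250 with edgeR), 12 in prefrontal cortex (177), 11 in hippocampus (36) and 25 for sex (107), and 0 members passed in prefrontal cortex. Without the filter on low counts they were 21 in prefrontal cortex, 5 in hippocampus, 0 for the difference of diet effects between sexes (15) and 23 for sex. With edgeR's earlier method 1 gene passed for the difference between regions. Leaving out each pair or library in turn gave 97 to 291 genes and 0 to 1 members for diet over all pairs, 99 to 386 in prefrontal cortex, 26 to 75 in hippocampus, 0 to 65 for the difference between regions, 1 to 236 for the difference between sexes in the diet effect and 8 to 107 for sex. The cause was not tested. With the longest transcript as length, the means were 79.9 CPM per kb for Ntrk2, 9.98 for Bdnf and 8.72 for Ntrk3.

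Only values that had not passed changed sign. With DESeq2, Ntf3 was 0.037 for diet over all pairs and -0.14 for sex. Over the left-out libraries or pairs Ntf3 ranged from -0.29 to 0.22 for diet and from -1.31 to 0.012 between hypothalamus and prefrontal cortex. Ngfr ranged from -0.26 to 0.0087 for diet in prefrontal cortex, -0.60 to 0.054 in hippocampus, -0.48 to 0.18 for the difference between these regions, -0.10 to 0.51 for the difference between sexes in the diet effect and -0.0086 to 0.31 for sex. Bdnf ranged from -0.078 to 0.51 for the difference between sexes in the diet effect.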

Other observations

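Among the activity-induced genes, the orphan nuclear receptors Nr4a2 and Nr4a3 had larger LP to NP ratios where Bdnf did. The log2 ratio of Nr4a2 was 1.35 and 1.34 in male and female prefrontal cortex and 1.07 in hypothalamus, and 0.80 and 0.64 in male and female hippocampus. Nr4a3 was at 1.00 and 0.96 in prefrontal cortex, 1.38 in hypothalamus, and 0.41 and 0.47 in hippocampus. Egr2, a zinc finger transcription factor, had its largest ratios in hippocampus, at 1.72 in males and 1.57 in females. The difference between hippocampus and prefrontal cortex was -0.62 ± 0.11 for Nr4a2 (adjusted p = 0.283), -0.54 ± 0.09 for Nr4a3 (adjusted p = 0.194) and 0.93 ± 0.22 for Egr2 (adjusted p = 0.46), by edgeR, and none passed. These genes were picked after their values were seen.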
